A study of Mus musculus with 56 samples.

Results

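The 10 genes described here encode the core of polycomb repressive complex 2 (PRC2; Ezh2, Ezh1, Eed and Suz12), the DNA methyltransferases (Dnmt1, Dnmt3a and Dnmt3b) and the TET enzymes (Tet1, Tet2 and Tet3). They were chosen by function from the 47937 genes listed in each of 2 count tables, and all 10 passed the filter on low counts in both. RNA was sequenced from naive CD4+ T cells of C57BL/6 mouse spleen and lymph nodes that had been polarized in culture for 4 days toward TH1, TH2, TH17 or regulatory T (Treg) cells. One set of libraries (the Odc set) compares cells of mice with a loxP-flanked Odc gene and CD4-Cre (labelled Odc-/-) with cells of Cre-negative littermates (WT). The other (the Dohh set) makes the same comparison for a loxP-flanked Dohh gene (labelled Dohh-/-). Odc encodes ornithine decarboxylase, which makes the polyamine putrescine, and Dohh encodes deoxyhypusine hydroxylase, which completes the spermidine-derived amino acid hypusine on a translation factor. The Odc set holds 31 libraries, 4 in each of its groups except TH2 Odc-/- with 3 (its labelled replicate 1 was not analysed here), and the Dohh set holds 24, with 3 in each group. CD4-Cre is driven by the CD4 promoter and acts in developing T cells. The labels do not tie a library to an animal, so the tests below measure the spread between libraries.

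PRC2 places methyl groups on lysine 27 of histone H3 through its catalytic subunit EZH2 or EZH1, with EED and SUZ12 holding the complex together and EED reading the mark it makes. EZH2 is the form of dividing cells and EZH1 that of resting cells, and in CD4+ T cells EZH2 is known to restrain the genes of alternative TH fates. DNMT1 copies methylation to the new DNA strand after replication, DNMT3A and DNMT3B methylate unmarked CpG sites, and the TET enzymes oxidise 5-methylcytosine with 2-oxoglutarate as a cosubstrate. Both families of methyltransferase use S-adenosylmethionine, the compound from which polyamine synthesis also draws its aminopropyl groups.

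Several features of the libraries bear on the results. Assigned counts ran from 5905374 to 9145214 per library in the Odc set and from 6572148 to 12576933 in the Dohh set, and levels are given as CPM, counts scaled to a common library total after TMM scaling. The counts of the targeted genes did not show a loss in every subset. Odc1, counted over all its exons, was 1.32-fold lower in TH17 libraries labelled Odc-/- (edgeR adjusted p = 0.0416) and did not pass the test in the other subsets (log2 fold changes of 0.26 in TH1, -0.20 in TH2 and 0.20 in Treg). Dohh was higher, not lower, in 3 of the 4 subsets labelled Dohh-/- (log2 fold changes of 1.43 in TH1, 1.10 in TH2 and 1.15 in Treg), and it was also higher in all 4 subsets labelled Odc-/-. Of its exon length, 47.5% is shared on the same strand with Gm48551, so its count is uncertain. Because the counts include exons outside the deleted part, they do not check the deletion, and the groups are called by their labels throughout. Cd4 itself, the defining marker of these cells, was 12.2-fold to 25.0-fold lower in the libraries labelled Dohh-/- (means of 36.0 to 61.2 CPM against 701 to 940.5 CPM in WT) and 1.63-fold to 2.01-fold lower in those labelled Odc-/-. Of 10 T cell markers in the Dohh set, Cd4, Trac, Cd5 and Cd28 fell in all 4 subsets and Thy1 rose in all 4, and the 10 summed to 2763 to 6052 CPM in Dohh-/- libraries and 4032 to 5466 CPM in WT. The sums lay below WT without overlap in TH2 of both sets (2575 to 2911 against 3972 to 4487 CPM for Odc, 2763 to 3661 against 4032 to 4614 CPM for Dohh) and in TH1 of the Odc set (3658 to 4230 against 4857 to 5690 CPM). Defining factors of the TH1, TH2 and Treg subsets were present in WT cells (Tbx21, Gata3 and Foxp3 at 148, 257 and 478 CPM in their own subsets of the Odc set). In the deficient libraries of the Dohh set Foxp3 was at 106 CPM in Treg against 575 CPM in WT. Myeloid markers summed to 22.0 to 42.5 CPM in WT libraries of the Dohh set, but to 8907 and 11628 CPM in TH17 and to 4422 and 4885 CPM in Treg in the deficient libraries numbered 2 and 3, and to 29.6 to 827 CPM in deficient TH2 and 7.25 to 238 CPM in deficient TH1 libraries. In the Odc set they summed to 51.5 to 603 CPM in deficient TH17 libraries (WT 22.0 to 55.6) and 109 to 779 CPM in Treg (WT 22.6 to 49.6). Basophil and mast cell markers summed to 72.1 to 1409 CPM in Dohh-/- libraries against 5.10 to 25.7 CPM in their WT, and to 29.9 to 365 CPM in Odc-/- libraries against 6.66 to 50.8 CPM. B cell markers summed to 273 to 1244 CPM in Odc-/- TH1 libraries (highest in replicate 1) against 34.4 to 98.5 CPM in WT, and were also higher in Odc-/- TH2 (578 to 880 against 89.8 to 236 CPM) and Treg cells (494 to 646 against 221 to 250 CPM). In the Dohh set they were higher in deficient Treg (561 to 847 against 280 to 294 CPM) and TH17 libraries (360 to 440 against 241 to 258 CPM) and lower in TH1 (11.8 to 36.4 against 49.2 to 65.3 CPM). In bulk RNA, fewer cells of a type and less RNA per cell cannot be told apart. The part of other cells in the results below was not tested. Values given without some of the libraries are no test of it, since the deficient libraries kept also held such markers. The tables do not share a scale (WT TH1 Suz12 averaged 252 CPM in one and 97.6 CPM in the other), so levels are compared only within a table.

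In mm10 (GRCm38) Ezh2 and Tet3 share chromosome 6, Ezh1 and Suz12 share chromosome 11, and the other genes lie on separate chromosomes. The counts are sums over all exons of each gene. Ezh2 spans chr6:47530139-47595341, Ezh1 chr11:101191115-101226463, Eed chr7:89954654-89980983 and Suz12 chr11:79993106-80034123. Dnmt1 spans chr9:20907209-20959888, Dnmt3a chr12:3806007-3914443 and Dnmt3b chr2:153649450-153687730. Tet1 spans chr10:62804570-62908996, Tet2 chr3:133463679-133545139 and Tet3 chr6:83362373-83459084. No gene on the same strand overlaps their exons. Annotated genes on the opposite strand cover 6.82% of the exon length of Eed, 3.6% of Suz12 and 2.61% of Ezh2, and the strand setting of the counting is not given in the sources used here. All 10 genes had a promoter entry in the RefSeq table of GRCm38.p6, from 250 bases before to 50 bases after the transcript start. The promoters were searched on both strands for the 8-base words TTTCCCGC, TTTCGCGC, TTTGCCGC and TTTGGCGC, which E2F factors are known to bind at cell cycle genes. Of all 32851 promoters in that table, 2.26% hold at least 1 of these words. Among the 10 genes, Ezh2 and Suz12 hold 1 and Dnmt1 holds 2, both in 1 of its 3 listed promoters. Ezh1, Eed, Dnmt3a, Dnmt3b, Tet1, Tet2 and Tet3 hold none. In the 8 comparisons below, Eed without a word rose in 6, while Suz12 with a word rose in 2 and fell in 3. Any part of the words in the changes was not tested. The promoters of the 3 genes with a word and of Ezh1 and Tet1, which fell in the most comparisons, are shown 5′ to 3′ with the words in capitals. The first 2 lie at chr6:47594981-47595280 (minus strand) and chr11:79992856-79993155 (plus strand), the Dnmt1 promoter at chr9:20952574-20952873 (minus), that of Ezh1 at chr11:101226414-101226713 (minus) and that of Tet1 at chr10:62887275-62887574 (minus). A match of letters is a description and not a measured site.
Ezh2: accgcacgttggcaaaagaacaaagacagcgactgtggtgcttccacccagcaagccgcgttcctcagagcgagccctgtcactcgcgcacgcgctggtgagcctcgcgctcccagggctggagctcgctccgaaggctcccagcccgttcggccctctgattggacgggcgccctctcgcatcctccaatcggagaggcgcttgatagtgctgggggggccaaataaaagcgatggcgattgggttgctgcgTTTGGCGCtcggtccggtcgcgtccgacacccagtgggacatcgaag
Suz12: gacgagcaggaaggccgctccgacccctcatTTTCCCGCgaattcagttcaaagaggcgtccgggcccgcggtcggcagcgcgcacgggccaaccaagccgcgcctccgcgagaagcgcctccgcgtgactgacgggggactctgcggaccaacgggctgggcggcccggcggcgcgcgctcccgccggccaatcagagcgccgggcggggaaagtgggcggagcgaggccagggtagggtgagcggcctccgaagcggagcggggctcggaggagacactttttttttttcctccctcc
Dnmt1: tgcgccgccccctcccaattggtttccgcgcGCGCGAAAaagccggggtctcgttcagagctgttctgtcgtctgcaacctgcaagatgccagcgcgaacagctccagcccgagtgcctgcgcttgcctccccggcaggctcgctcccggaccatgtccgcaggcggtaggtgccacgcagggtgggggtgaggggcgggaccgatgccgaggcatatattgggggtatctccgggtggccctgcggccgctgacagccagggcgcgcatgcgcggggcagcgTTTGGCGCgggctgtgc
Ezh1: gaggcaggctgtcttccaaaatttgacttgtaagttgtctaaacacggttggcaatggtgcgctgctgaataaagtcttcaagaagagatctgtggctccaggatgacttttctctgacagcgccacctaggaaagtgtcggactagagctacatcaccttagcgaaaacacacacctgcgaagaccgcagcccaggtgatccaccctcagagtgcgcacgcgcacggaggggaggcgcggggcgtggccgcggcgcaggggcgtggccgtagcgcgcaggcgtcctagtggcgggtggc
Tet1: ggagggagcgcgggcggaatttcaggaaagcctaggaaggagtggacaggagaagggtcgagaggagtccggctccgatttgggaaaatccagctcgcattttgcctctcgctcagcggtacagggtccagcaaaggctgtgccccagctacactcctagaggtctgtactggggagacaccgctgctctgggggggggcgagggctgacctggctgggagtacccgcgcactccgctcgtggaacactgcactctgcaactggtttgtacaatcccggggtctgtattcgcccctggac

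Comparing the deficient with the WT libraries of each subset asks how the 10 genes change when polyamine synthesis or hypusine formation is targeted. Ezh1 fell in all 8 comparisons and Tet1 in 7 of 8. Tet2 fell in 5 of 8 and Tet3 in 4 of 8, and no TET gene rose in any. Ezh2 and Eed rose in 6 of 8 each and fell in none. Dnmt1 rose in 3 of 8, while Suz12 and Dnmt3a moved in both directions and Dnmt3b passed the test once. For Odc, 8 of the 10 genes passed in TH1, 7 in TH2, 5 in TH17 and 6 in Treg, where 56.8%, 59.2%, 47.8% and 59.8% of all genes tested did. For Dohh, 7, 4, 5 and 7 passed, where the background was 50%, 45.3%, 52.0% and 53.4%. Changes over 2-fold were fewer, with 2, 2, 1 and 2 of the 10 genes in the Odc set (background 21.4%, 25.1%, 15.6% and 24.0%) and 3, 2, 1 and 4 in the Dohh set (background 29.1%, 25.9%, 31.4% and 32.7%). These shares lie near those of all genes, so the number of calls says little about the 10 genes as a group. What differs among them is the direction.

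**Figure D1:**
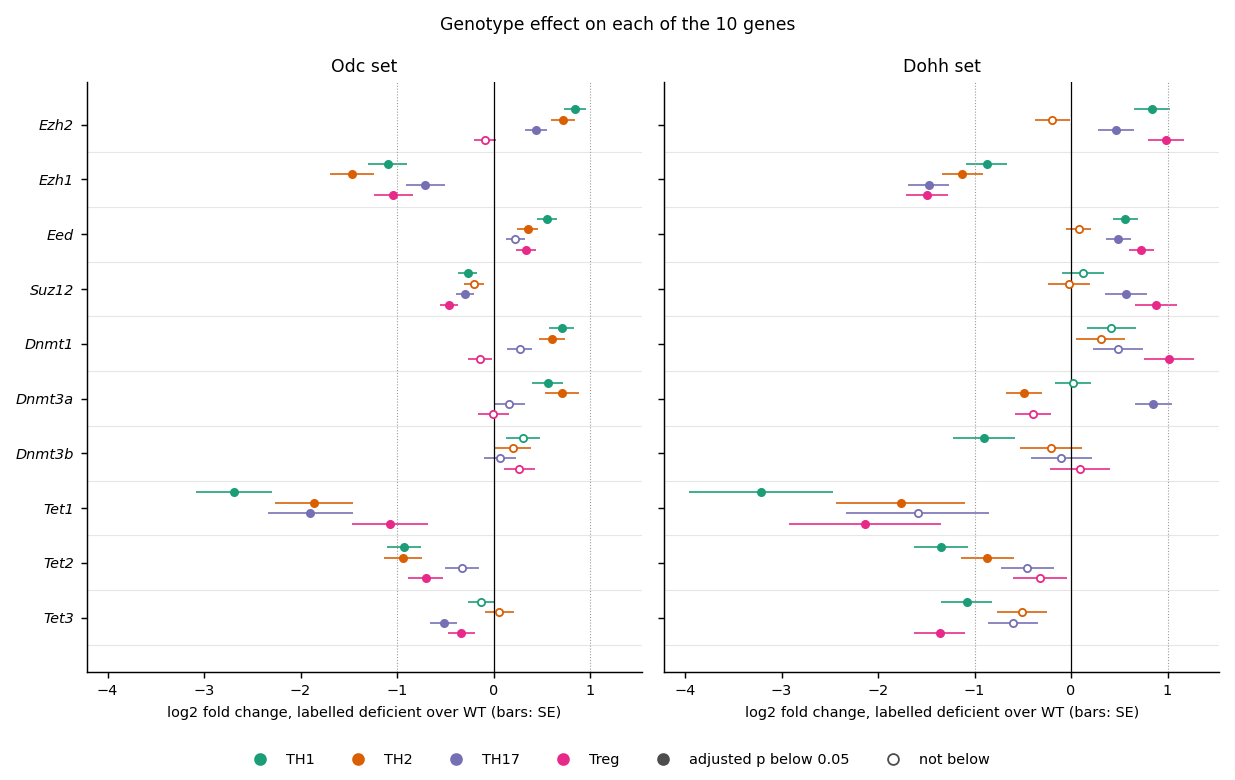
Log2 fold change of each gene in the libraries labelled deficient over WT (x axis, bars are SE), in the Odc set on the left and the Dohh set on the right, with 1 point per subset and filled points for an adjusted p below 0.05. Every Ezh1 point lies left of 0, between -1.495 and -0.71, and every Tet1 point lies between -3.21 and -1.07, whereas Suz12 points lie left of 0 in the Odc set and reach 0.88 in the Dohh set.

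Ezh1, the PRC2 catalytic subunit of resting cells, was lower in the deficient libraries of every subset. In TH1 cells of the Odc set it measured 92.8, 77.0, 102 and 61.2 CPM in WT and 54.3, 34.3, 33.7 and 33.6 CPM in Odc-/- libraries. The groups did not overlap, and Odc-/- replicate 1 stood above the other 3. In TH2 cells it measured 91.0, 80.9, 87.6 and 70.9 CPM in WT and 28.2, 32.3 and 28.8 CPM in Odc-/-, a 2.77-fold fall (log2 fold change -1.47 ± 0.23 SE, edgeR adjusted p = 7.9e-06). The fall was 2.14-fold in TH1 (edgeR adjusted p = 7.72e-05), 1.63-fold in TH17 (0.00552) and 2.06-fold in Treg (8.43e-05). In Treg the groups overlapped because WT replicate 4 was at 47.8 CPM while the other WT libraries were at 86.5 to 118 CPM and the Odc-/- libraries at 35.4 to 51.3 CPM. Without the WT libraries numbered 4 the log2 fold changes were -1.22, -1.54, -0.83 and -1.25. No comparison of the Dohh set overlapped. In TH17 cells WT libraries were at 171, 168 and 162.5 CPM and Dohh-/- libraries at 67.2, 56.9 and 56.2 CPM, which is 2.78-fold lower (log2 fold change -1.47 ± 0.21 SE, edgeR adjusted p = 1.21e-05). Treg cells fell from 143, 109 and 112 CPM to 54.1, 42.0 and 33.2 CPM, 2.82-fold. Ezh1 also fell in TH1 (1.83-fold, edgeR adjusted p = 0.00199) and TH2 (2.18-fold, 0.000256). The Dohh-/- libraries numbered 1 had myeloid sums of 7.25 to 589 CPM, basophil and mast cell sums of 72.1 to 379.5 CPM and CD8+ T and NK cell sums of 17.1 to 197 CPM. With only those libraries kept in each subset Ezh1 was lower by log2 1.045, 0.89, 1.303 and 1.195 in TH1, TH2, TH17 and Treg, values with no test of their own because each group then holds a single deficient library.

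Ezh2, the catalytic subunit of dividing cells, changed the other way in most comparisons. In TH1 cells of the Odc set it rose from 135, 122.5, 126 and 127.5 CPM to 166, 253.5, 235 and 259.9 CPM, 1.79-fold (log2 fold change 0.84 ± 0.11 SE, edgeR adjusted p = 2.7e-06). It rose 1.64-fold in TH2 (edgeR adjusted p = 2.13e-05) and 1.35-fold in TH17 (0.00283), and in these 3 subsets the groups did not overlap. In Treg the 2 groups overlapped, with WT at 140.0 to 187 CPM and Odc-/- at 140.1 to 167 CPM (log2 fold change -0.09). Treg cells of the Dohh set showed the largest rise, from 57.2, 65.2 and 58.8 CPM to 110.0, 116.5 and 132 CPM (1.98-fold, edgeR adjusted p = 0.000184). TH1 rose 1.79-fold, although Dohh-/- replicate 3 at 78.1 CPM lay within the WT range of 58.8 to 80.3 CPM. TH17 rose 1.38-fold (edgeR adjusted p = 0.0419), a call lost when any of 5 of its 6 libraries was left out (adjusted p of 0.0767 to 0.099). TH2 did not pass, with WT at 101 to 139 CPM and Dohh-/- at 94.7 to 113 CPM.

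Eed, the subunit that binds trimethylated H3K27 and stimulates the complex, rose in 6 of the 8 comparisons, not always those in which Ezh2 rose. It went from 91.3 to 109 CPM in WT TH1 libraries of the Odc set to 113 to 158 CPM in Odc-/- libraries (1.47-fold, edgeR adjusted p = 6.68e-05). TH2 rose 1.28-fold and Treg 1.26-fold, and TH17 did not pass (log2 fold change 0.23, edgeR adjusted p = 0.0678). Eed of the Dohh set rose 1.48-fold in TH1, 1.41-fold in TH17 and 1.66-fold in Treg, with no overlap of libraries in any of these, and in TH2 the log2 fold change was 0.08.

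Suz12, the scaffold subunit that the complex needs to be stable, differed between the tables. In Treg cells of the Odc set it fell from 269, 276, 227 and 312 CPM to 187, 211, 189.5 and 199 CPM (1.38-fold, edgeR adjusted p = 0.000186). It was also lower in TH1 (1.21-fold, edgeR adjusted p = 0.0182) and TH17 (1.23-fold, 0.013), and in TH2 it did not pass (0.099). The TH1 and TH17 calls were each lost without 1 library (TH1 WT replicate 2, adjusted p = 0.056, and TH17 Odc-/- replicate 3, 0.0531). In Treg cells of the Dohh set Suz12 rose instead, from 91.8, 55.6 and 82.2 CPM to 127, 126 and 168.5 CPM (1.84-fold, edgeR adjusted p = 0.00201). TH17 rose 1.49-fold (edgeR adjusted p = 0.0321, and 0.0515 to 0.108 when any of 5 of the 6 libraries was left out), and TH1 and TH2 did not pass (log2 fold changes of 0.12 and -0.02).

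**Figure D2:**
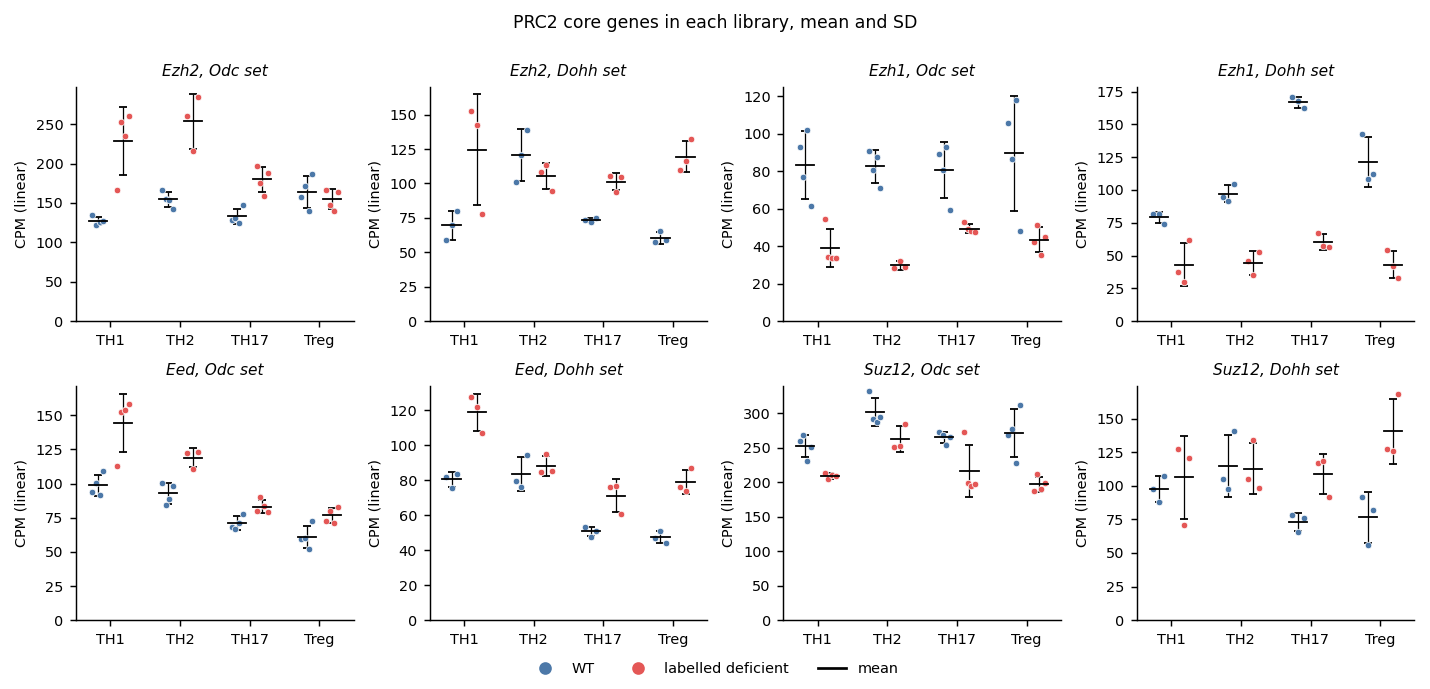
CPM (y axis, linear) of the 4 PRC2 core genes in every library, by subset (x axis), with WT in blue, libraries labelled deficient in red, and the mean and SD of each group in black. Ezh1 lies lower in all deficient groups, at 28.2 to 67.2 CPM over both tables, and Ezh2 lies higher in most.

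The ratio of Ezh1 to Ezh2, taken as CPM per kilobase of exon within each library, does not depend on how libraries are scaled. In WT libraries of the Odc set it was 0.229 to 0.757 over all subsets, so Ezh2 was the more abundant transcript per length. It was 4.53-fold lower in Odc-/- TH2 libraries, 3.79-fold lower in TH1, 2.18-fold lower in TH17 and 1.86-fold lower in Treg. In WT TH17 and Treg libraries of the Dohh set Ezh1 was the more abundant of the pair, at 1.94 to 2.1 and 1.5 to 2.24 times Ezh2. In the Dohh-/- libraries the ratio was 0.482 to 0.572 in TH17 and 0.225 to 0.441 in Treg, 3.85-fold and 5.64-fold lower. Libraries of the 2 groups did not overlap in 7 of the 8 comparisons, the exception being Treg of the Odc set. The two-sided exact permutation test gave p = 0.0286 in TH1, TH2 and TH17 of the Odc set and 0.1 in each comparison of the Dohh set, the smallest values these group sizes allow, and 0.0857 in Treg of the Odc set. Adjusted over the 16 tests of this ratio and that of Dnmt3a to Dnmt1, these exact p values were 0.153 to 0.16.

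**Figure D3:**
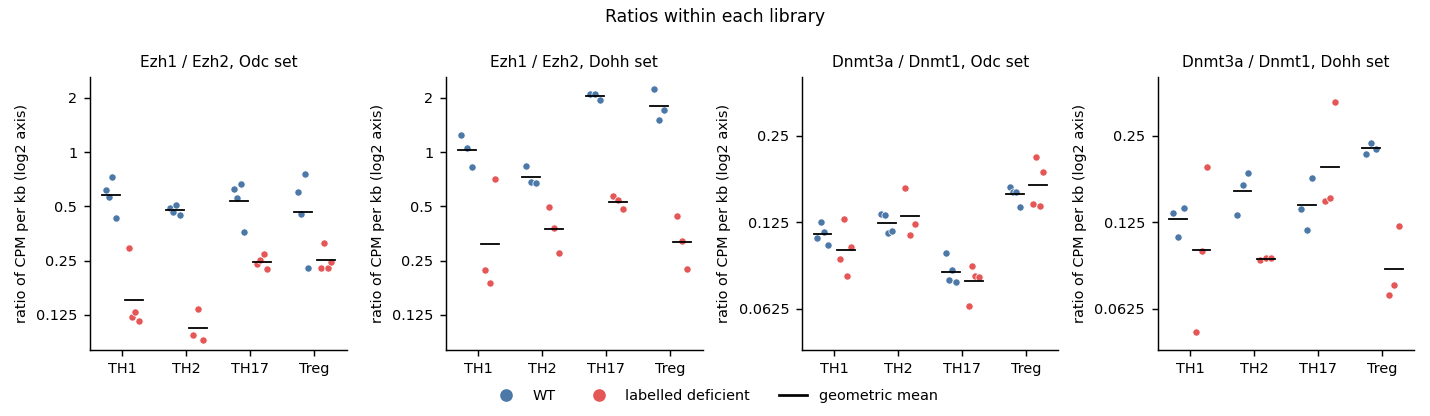
Ratio of Ezh1 to Ezh2 (left pair of panels) and of Dnmt3a to Dnmt1 (right pair) in every library, as CPM per kilobase on a log2 axis, with the geometric mean of each group as a black line. The Ezh1 to Ezh2 ratio of deficient libraries (red) lies below that of WT libraries (blue) in every subset but Treg of the Odc set, where WT replicate 4 lies at 0.229.

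Dnmt1, the maintenance methyltransferase, rose in TH1 and TH2 cells of the Odc set and in Treg cells of the Dohh set. In the Odc set TH1 libraries went from 262, 246, 227 and 282 CPM to 319.9, 452, 435 and 453 CPM (1.63-fold, edgeR adjusted p = 6e-05), with Odc-/- replicate 1 nearest to WT. TH2 libraries went from 276 to 306 CPM to 385 to 485 CPM (1.52-fold, edgeR adjusted p = 0.000491). TH17 did not pass (log2 fold change 0.27, edgeR adjusted p = 0.0835), but passed without WT replicate 4, which was at 414.5 CPM (log2 fold change 0.41, 0.00874). Treg libraries overlapped, at 304 to 476 CPM in WT and 314 to 344 CPM in Odc-/-. Treg libraries of the Dohh set rose from 154, 152 and 160.3 CPM to 348, 359 and 238 CPM (2.02-fold, edgeR adjusted p = 0.00245). The deficient TH1 libraries disagreed, with replicate 1 at 383 CPM and the others at 171.5 and 172 CPM, beside WT at 171 to 189 CPM.

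Dnmt3a, the main de novo methyltransferase of T cells, moved in both directions. In TH2 cells of the Odc set it rose from 71.7 to 86.6 CPM to 164, 98.2 and 134 CPM (1.64-fold, edgeR adjusted p = 0.000955), and in TH1 1.47-fold (0.00471) with overlapping groups. The TH1 call was lost without Odc-/- replicate 2 (adjusted p = 0.0501). TH17 and Treg had log2 fold changes of 0.16 and 0.00. TH17 of the Dohh set rose from 45.7, 35.1 and 48.8 CPM to 80.5, 69.7 and 84.2 CPM (1.81-fold, edgeR adjusted p = 0.000792). TH2 fell 1.40-fold from 58.6 to 72.7 CPM to 43.1 to 50.2 CPM (edgeR adjusted p = 0.0401, and 0.0516 to 0.135 when any of 5 of the 6 libraries was left out). Treg libraries did not overlap, at 75.6 to 81.7 CPM in WT and 55.0 to 65.1 CPM in Dohh-/-, without passing the test (edgeR adjusted p = 0.0782). Dnmt3b was scarce, at 6.06 to 28.6 CPM in the Odc set and 3.47 to 21.5 CPM in the Dohh set. It passed only in TH1 of the Dohh set, where it was 1.87-fold lower (edgeR adjusted p = 0.0247). That call was lost without Dohh-/- replicate 2, which was at 3.47 CPM (log2 fold change -0.55, adjusted p = 0.118), without Dohh-/- replicate 1 (0.0544) and without WT replicate 1 (0.094).

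The ratio of Dnmt3a to Dnmt1 per length set the de novo against the maintenance enzyme within each library. It overlapped between the groups in all 4 comparisons of the Odc set, with exact permutation p of 0.286 to 0.686. For Dohh it was apart in TH2, 1.73-fold lower at 0.0922 to 0.0937 against 0.133 to 0.186, and in Treg, 2.62-fold lower at 0.0699 to 0.121 against 0.217 to 0.237. Both had the smallest exact permutation p possible with 3 libraries against 3, 0.1.

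By point estimate, with all libraries in the fit, Tet1 had the largest fold change of the 10 genes in each of the 8 comparisons, on low counts. In TH1 cells of the Odc set it measured 24.5, 25.0, 20.9 and 10.5 CPM in WT and 6.33, 2.25, 1.55 and 2.52 CPM in Odc-/- libraries, 6.44-fold lower (log2 fold change -2.69 ± 0.39 SE, edgeR adjusted p = 5.97e-06). TH2 libraries fell from 24.1, 16.5, 22.4 and 14.3 CPM to 4.10, 5.85 and 5.94 CPM (3.64-fold, edgeR adjusted p = 0.000335). TH17 fell 3.73-fold (edgeR adjusted p = 0.00103) and Treg 2.11-fold (0.02), with WT replicate 4 reaching into the deficient range in both, at 2.09 and 3.96 CPM. The Treg call was lost without Odc-/- replicate 3 or WT replicate 1 (log2 fold changes of -0.90 and -0.88, adjusted p of 0.0701 and 0.0766). In the Dohh set the gene was near the limit of counting. WT TH1 libraries were at 5.38, 5.47 and 3.14 CPM and Dohh-/- libraries at 0.715, 0 and 0.661 CPM, while 3 counts correspond to 0.226 to 0.473 CPM. The libraries were apart in all 4 subsets, and the test was passed in TH1 (edgeR adjusted p = 0.00132), TH2 (0.0358) and Treg (0.0273) but not in TH17 (0.0758). The calls in TH2 and Treg were each lost without any of several single libraries, with adjusted p from 0.0509 to 0.146, and TH17 passed without Dohh-/- replicate 3 (0.0372).

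Tet2, the TET gene most often mutated in T cell lymphoma, was more abundant than Tet1 and also fell. In TH1 cells of the Odc set WT libraries were at 151, 134, 169 and 108 CPM and Odc-/- libraries at 113, 57.5, 65.4 and 60.4 CPM, 1.90-fold lower (edgeR adjusted p = 0.000104), with Odc-/- replicate 1 inside the WT range. TH2 fell 1.92-fold, from 129 to 177 CPM to 78.8 to 90.6 CPM (edgeR adjusted p = 0.000195), and Treg 1.63-fold (0.00123). In the Dohh set TH1 fell from 52.2, 38.8 and 43.1 CPM to 20.01, 8.2 and 24.1 CPM (2.54-fold, edgeR adjusted p = 0.000521) and TH2 1.82-fold (0.014). The TH2 call was lost without WT or Dohh-/- replicate 3 (adjusted p of 0.0789 and 0.0955). TH17 did not pass in either table (edgeR adjusted p of 0.13 and 0.179), nor did Treg of the Dohh set (0.339), although in the Dohh set neither pair of groups overlapped.

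Tet3 fell in 2 subsets of each set. Treg libraries went from 89.6, 73.1 and 97.8 CPM to 26.9, 33.4 and 41.1 CPM (2.57-fold, edgeR adjusted p = 2e-04), and TH1 libraries from 58.4 to 62.3 CPM to 37.2, 12.1 and 35.4 CPM (2.12-fold, 0.00186). TH2 and TH17 did not overlap but missed the threshold (edgeR adjusted p of 0.115 and 0.0553), which TH17 passed without Dohh-/- replicate 3 (0.0323). In the Odc set TH17 fell from 76.9 to 92.5 CPM to 48.2 to 66.4 CPM (1.43-fold, edgeR adjusted p = 0.0036), and the Treg change (1.26-fold, 0.0369) was lost without any of 4 single libraries (adjusted p of 0.0867 to 0.188). TH1 and TH2 had log2 fold changes of -0.13 and 0.06.

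**Figure D4:**
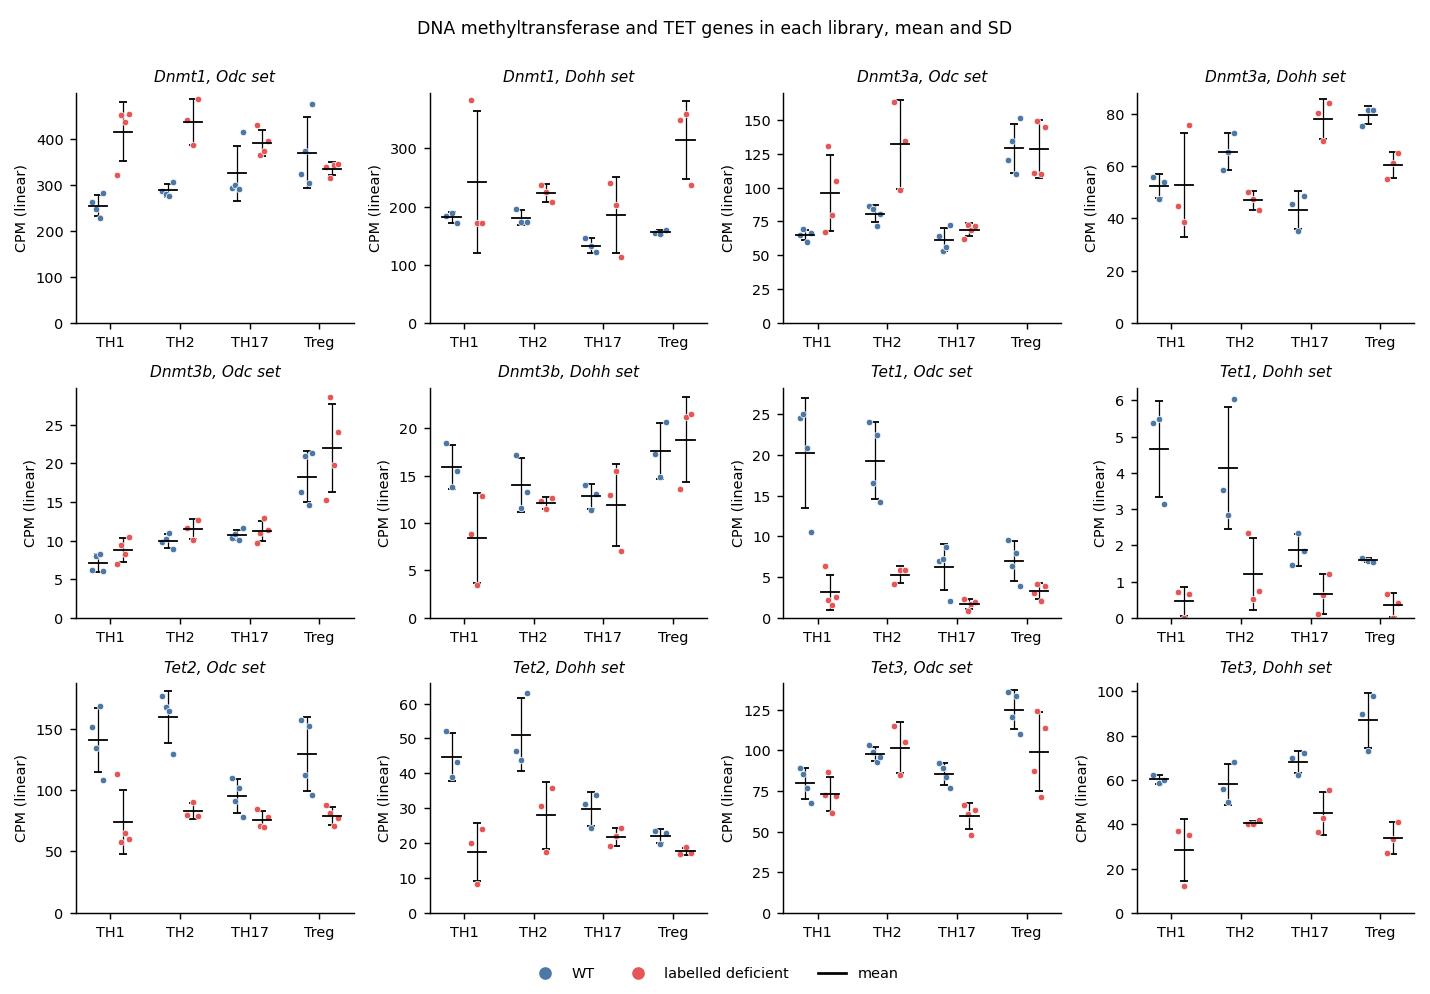
CPM (y axis, linear, own scale in each panel) of the 3 DNA methyltransferase and 3 TET genes in every library, by subset (x axis), with WT in blue, libraries labelled deficient in red, and the mean and SD of each group in black. Tet1 of the Odc set drops from 10.5 to 25.0 CPM in WT TH1 to 1.55 to 6.33 CPM, whereas Dnmt3b groups overlap in 7 of the 8 comparisons.

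The effect in the Odc set was then set against that in the Dohh set, subset by subset, by testing the difference of the 2 log2 fold changes. Of all genes tested, 19.5% differed in TH1, 16.2% in TH2, 22.5% in TH17 and 27.7% in Treg. Of the 10 genes 2, 2, 2 and 5 differed. Ezh1, Tet1 and Tet2 did not differ in any subset (edgeR adjusted p of 0.0828 to 0.943), with standard errors of 0.30 to 0.87 on the log2 scale that leave room for sizeable differences. In Treg cells the Odc effect was below the Dohh effect for Suz12 (difference -1.42 ± 0.22 SE, edgeR adjusted p = 3.57e-06), Dnmt1 (-1.23 ± 0.28, 0.000592), Ezh2 (-1.15 ± 0.21, 4.59e-05) and Eed (-0.47 ± 0.155, 0.0188), and above it for Tet3 (0.94 ± 0.28, 0.00924). In TH17 cells it was below for Suz12 (-0.92, edgeR adjusted p = 0.00207) and Dnmt3a (-0.74, 0.0251). In TH2 cells it was above for Dnmt3a (1.17, edgeR adjusted p = 0.00102) and Ezh2 (0.89, 0.00325), and in TH1 cells for Dnmt3b (1.18, 0.0144) and Tet3 (0.93, 0.0175). The TH1 differences, that of Dnmt3a in TH17 and that of Eed in Treg were each lost without 1 or more single libraries (adjusted p of 0.0522 to 0.0987).

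Cell cycle genes moved beside Ezh2 and Dnmt1 in some comparisons and not in others. The summed CPM of 26 cell cycle genes was higher in the deficient libraries by log2 0.51 in TH1 and 0.43 in TH2 of the Odc set and by 1.06 in TH1, 0.64 in TH17 and 1.19 in Treg of the Dohh set, with no overlap of libraries. In TH17 of the Odc set the log2 ratio was 0.26 and the groups overlapped. In Treg of the Odc set, where Ezh2 and Dnmt1 did not rise (log2 fold changes of -0.09 and -0.14), the log2 ratio of the cell cycle sum was -0.19 and the groups overlapped. TH2 of the Dohh set went apart, with a log2 ratio of 0.46 beside an Ezh2 log2 fold change of -0.19. Dnmt1 of the Dohh set passed in Treg, and in TH17 only without Dohh-/- replicate 3 (log2 fold change 0.76, edgeR adjusted p = 0.0158), with log2 fold changes of 0.42 in TH1 and 0.31 in TH2. Of the 26 genes, all tested, 18 rose and 3 fell in TH1, 16 and 3 in TH2, 11 and 0 in TH17 and 8 and 9 in Treg of the Odc set. For Dohh, 22, 14, 16 and 25 rose and 0, 2, 1 and 0 fell. The medians were 0.60, 0.50, 0.28 and 0.00 in the Odc set and 0.995, 0.58, 0.74 and 1.45 in the Dohh set, beside medians of all genes of -0.00 to 0.07. The part of proliferation in the changes of Ezh2 and Dnmt1 was not tested.

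Over the 4 WT groups, 8 of the 10 genes passed the test in the Odc set (background 71.1%) and 5 in the Dohh set (background 40.1%). The count in the Dohh set was 8 in the fit without the deficient libraries numbered 2 and 9 without those numbered 2 and 3, so no order between the sets is read from it. Dnmt3a followed the same order in both tables, from Treg (129 ± 17.8 and 79.6 ± 3.48 CPM, SD) through TH2 (80.8 and 65.7) and TH1 (65.0 and 52.5) to TH17 (61.4 and 43.2), although TH1 and TH17 overlapped in both sets and TH2 and TH17 in the Odc set (71.7 to 86.6 against 53.3 to 72.3 CPM). Eed was higher in TH1 and TH2 cells (98.6 and 92.9 CPM in the Odc set, 80.4 and 83.4 CPM in the Dohh set) than in TH17 and Treg cells (71.1 and 61.0 CPM, 50.7 and 47.6 CPM), with no overlap between the pairs (edgeR adjusted p = 1.69e-06 and 1.45e-05). Tet1 had the same split, at 20.2 and 19.3 CPM in TH1 and TH2 and 6.98 and 6.25 CPM in Treg and TH17 of the Odc set (edgeR adjusted p = 5.05e-05), but did not pass in the Dohh set (0.113). Tet2 had its highest mean in TH2, at 159 and 51.1 CPM, overlapping TH1 in both sets, and passed in both tables (edgeR adjusted p = 0.00398 and 0.00414). Tet3 was highest in Treg, at 125 ± 12.1 and 86.9 ± 12.6 CPM, above every other WT library, and passed only in the Odc set (edgeR adjusted p = 0.000639 and 0.206). Dnmt3b was also highest in Treg of the Odc set, 18.3 ± 3.35 CPM against 7.12 to 10.7 CPM elsewhere, but neighbours in its order overlapped in the Dohh set. Ezh2 was highest in TH2 of the Dohh set (120.4 ± 18.9 CPM, apart from 60.4 to 73.4 CPM in the rest), whereas neighbours in its order overlapped in the Odc set. Ezh1 did not differ in the Odc set (80.7 to 89.6 CPM, edgeR adjusted p = 0.889) and had 4 separate levels in the Dohh set, from TH17 (167 CPM) through Treg (121) and TH2 (97.0) to TH1 (79.1). Dnmt1 passed in the Odc set alone (Treg 369 ± 77.0 CPM to TH1 254 ± 23.3 CPM, neighbours overlapping), and Suz12 passed in neither. Per kilobase of exon, Dnmt1 and Suz12 were the most abundant of the 10 in WT TH1 cells of the Odc set (34.5 ± 3.15 and 51.0 ± 3.26 CPM per kb) and Tet1 the least (1.31 ± 0.44). The order differed in WT of the Dohh set, where Dnmt1 was first in TH1, TH2 and Treg. Ezh1 was first in TH17 there (22.45 ± 0.57 CPM per kb), and Tet1 was the least in each subset.

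Whether the genotype effect differed among subsets was tested as an interaction. Ezh2 passed in both tables (edgeR adjusted p = 0.000277 and 0.0104), as did Dnmt3a (0.0472 and 0.00302), and Dnmt1 passed in the Odc set (0.00228) but not in the Dohh set (0.409). These are 3 and 2 of the 10 genes, where 34.8% and 17.9% of all genes passed. The effect on Ezh2 was smallest in Treg in the Odc set and in TH2 in the Dohh set. These counts rest on the libraries and the fit. With 1 library left out they ran from 2 to 5 in the Odc set (5 without TH1 Odc-/- replicate 1) and from 2 to 4 in the Dohh set (4 without TH1 Dohh-/- replicate 3), and with the replicate number as a block 6 and 3 of the 10 genes passed.

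Genes with the profile most like each of the 10 were found by Pearson r of log2 CPM over the 31 libraries of the Odc set among 12900 genes, and are given with r over the 24 libraries of the Dohh set. The libraries fall into the same few groups, so r is a description. Ezh1 went with Dyrk1b (r = 0.971, and 0.949 in the Dohh set) and Pcmtd2 (0.966 and 0.938). Dnmt1 went with Rrm1 (0.947 and 0.705), which encodes a subunit of ribonucleotide reductase, and Chaf1a (0.939 and 0.664), a histone chaperone of replication. Ezh2 went with Sart3 (0.867 and 0.807) and Hat1 (0.859 and 0.804), a histone acetyltransferase. Eed went with Hk2 (0.93 and 0.597) and Me1 (0.907 and 0.785), enzymes of glycolysis and of malate use. After removal of the group means in the Odc set, r over all pairs named here ran from 0.255 (Eed with Me1) to 0.932 (Dnmt1 with Rrm1). Tet2 went with Prkab2 (0.968 and 0.561) and Sun1 (0.953 and 0.673), and Tet3 with Heg1 (0.848 and 0.742) and Pura (0.82 and 0.349). The closest genes of Tet1 (Piga, 0.956, and Vhl, 0.954), Suz12 (Scaf11, 0.897, and Nanos1, 0.893), Dnmt3a (Tacc2, 0.916, and Isoc1, 0.903) and Dnmt3b (Ipcef1, 0.913, and Sh3bp5, 0.896) had r of only -0.0154 to 0.574 in the Dohh set.

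Among the partners of PRC2 some genes rose and others fell. Of 10 accessory subunits, which direct the core complex to chromatin, 4 rose and 4 fell in each of TH1, TH2 and TH17 of the Odc set and 1 rose and 4 fell in Treg. For Dohh, 5, 2, 3 and 6 rose and 2, 2, 2 and 1 fell. Of all genes 47.8% to 59.8% passed in the subsets of the Odc set and 45.3% to 53.4% in those of the Dohh set, and the counts of this and the following lists are a description beside that background. The list's medians were -0.14, 0.14, -0.18 and -0.26 in the Odc set and 0.41, 0.07, 0.35 and 0.58 in the Dohh set. Jarid2 and Phf1, which help bring PRC2 to its sites, fell in 7 of 8 comparisons each. Jarid2 was 382 CPM in WT TH2 and 137 CPM in Odc-/- TH2 (log2 fold change -1.47, edgeR adjusted p = 1.5e-07), and 154 and 38.3 CPM in TH1 of the Dohh set (-2.002, 1.83e-07). Phf1 fell most in TH2, by log2 1.64 and 1.91 in the 2 tables. Epop, which links PRC2 to elongin, rose in 7 of 8 and by over 2-fold in each of those (log2 fold changes of 1.12 to 2.26). Among PRC1 subunits, the complex that reads H3K27 methylation and ubiquitinates H2A, Cbx7 fell in all 8 comparisons (-0.52 to -1.40), Phc3 in 7 (-1.14 at the most) and Pcgf5 in 6. Of the 20 PRC1 genes tested in the Odc set 7, 5, 6 and 6 rose and 5, 8, 6 and 10 fell, and of the 19 tested in the Dohh set 0, 0, 0 and 1 rose and 7, 10, 9 and 9 fell. The H3K27 demethylase gene Kdm6a fell in all 4 subsets of the Odc set (log2 fold changes of -0.95 to -0.63). In the Dohh set it did not pass, with log2 fold changes of -0.76 to -0.39, and the sets were not compared for it. Kdm6b fell in TH1 and TH2 of the first and TH17 and Treg of the second. The demethylase pair was named after its values were seen.

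**Figure D5:**
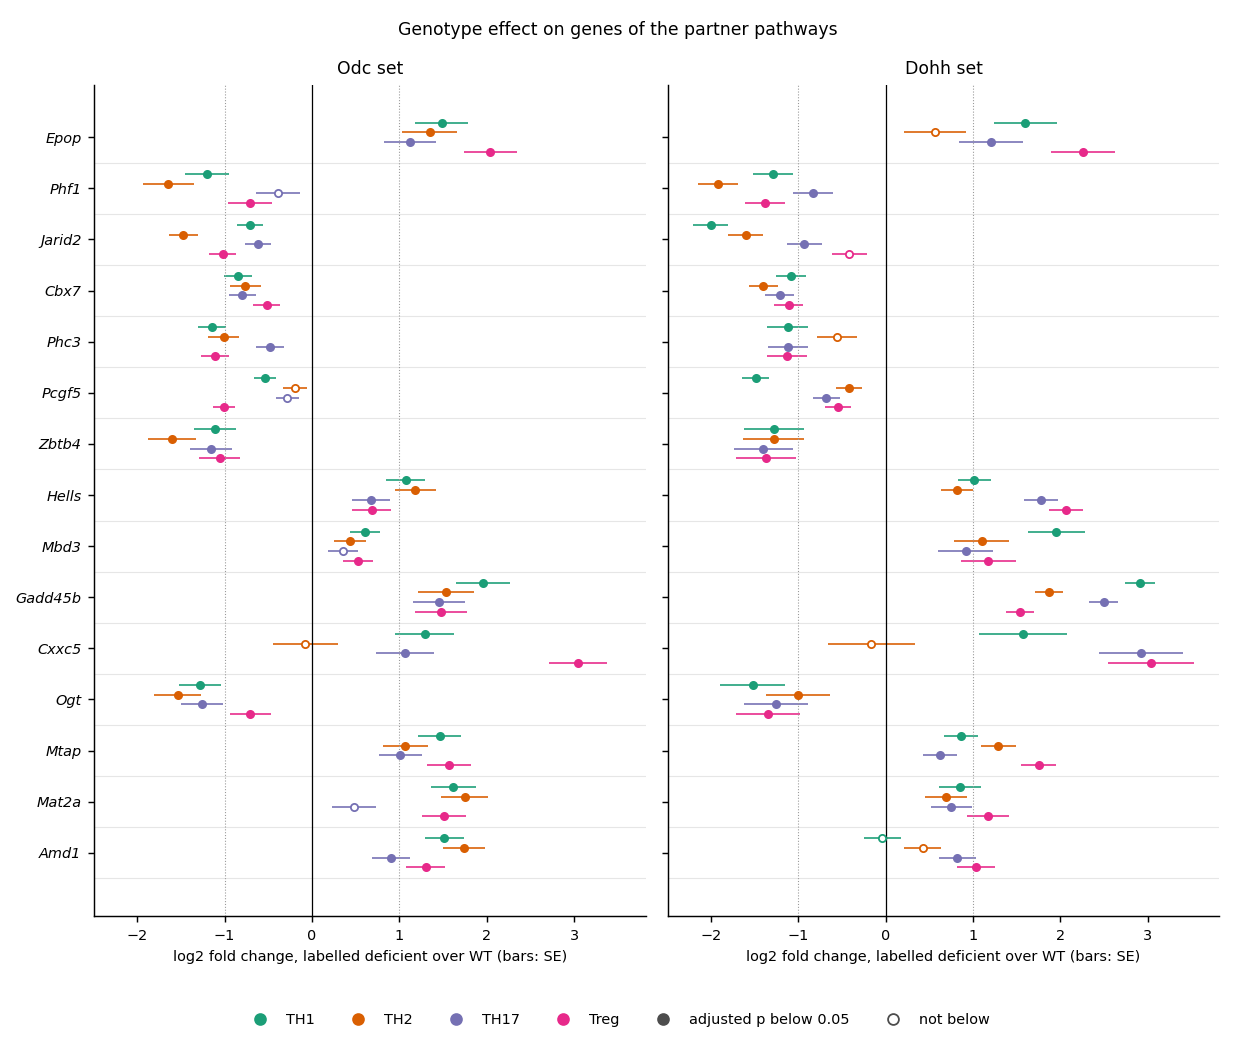
Log2 fold change of 15 genes of partner pathways in the libraries labelled deficient over WT (x axis, bars are SE), with 1 point per subset, filled for an adjusted p below 0.05. Cbx7, Zbtb4 and Ogt lie left of 0 and Hells, Gadd45b and Mtap right of 0 in all 8 comparisons.

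Among 13 cofactors and readers of DNA methylation, Hells, a chromatin remodeller that supports DNA methylation, rose in all 8 comparisons (log2 fold changes of 0.68 to 2.07), and Mbd3 rose in 7 (up to 1.95). Zbtb4, a zinc finger reader of methylated CpG, fell in all 8 by over 2-fold (-1.60 to -1.06). The numbers that rose and fell were 4 and 3, 5 and 2, 4 and 4, and 3 and 3 of 11 tested in the Odc set, and 4 and 4, 4 and 3, 4 and 4, and 4 and 3 of 12 tested in the Dohh set. Zfp57, at 0.0251 to 0.133 CPM in WT, was tested in the Dohh set only through the deficient libraries, and it supplies 1 of the rises in TH2, TH17 and Treg there. In the list of 13 genes for handling oxidised 5-methylcytosine, Gadd45b, a stress gene linked to demethylation, rose in all 8 comparisons (1.46 to 2.91). Cxxc5 rose in 6, and Ogt, whose product binds the TET enzymes, fell in all 8 (-1.54 to -0.71). The list's counts were 6, 3, 4 and 5 up and 4, 4, 2 and 3 down of 12 in the Odc set, and 5, 2, 4 and 4 up and 2, 2, 3 and 4 down of 12 in the Dohh set. Of 15 genes that supply S-adenosylmethionine and 2-oxoglutarate or remove their products, Mtap, which salvages methionine from the by-product of polyamine synthesis, rose in all 8 (0.62 to 1.75). Mat2a, which makes S-adenosylmethionine, rose in 7 (0.48 to 1.75 over all 8), and Amd1, which decarboxylates it for polyamine synthesis, rose in 6. Over that list 5, 6, 2 and 6 of 15 genes rose and 4, 3, 5 and 6 fell in the Odc set, and 2, 4, 4 and 3 rose and 5, 1, 5 and 4 fell in the Dohh set. The medians of the 3 lists lay between -0.43 and 0.54.

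Most genes listed as classical PRC2 targets stayed below the filter, 22 of 30 in one table and 23 of 30 in the other. Of those tested, 3, 5, 4 and 6 of 8 rose and 0, 0, 0 and 1 fell in the Odc set, and 4, 6, 5 and 5 of 7 rose and 0, 1, 1 and 0 fell in the Dohh set. A gene near 0 in WT passes the filter only through the group where it is high, so these counts do not describe the list. Cdkn2a, which encodes cell cycle inhibitors, averaged 2.23 CPM in WT and 45.7 CPM in Odc-/- TH1 libraries and 0.347 and 17.4 CPM in TH1 of the Dohh set. Cdkn2b had WT means of 0 to 0.40 CPM and deficient means of 1.203 to 4.202 CPM. Cdkn2b and, in the Dohh set, Cdkn2a are such genes near 0 in WT, and Cdkn2a of the Odc set was low there. The levels of both genes are given as a description with no test. Eomes, a T-box factor of CD8+ and TH1-like cells, rose in all 8 comparisons (7.92 and 49.6 CPM in Treg of the Odc set). In TH17 of the Dohh set Cdkn2b had no count in WT and 81 in the deficient libraries, at least 29.2-fold higher against a floor of 3 counts over the group. Markers of CD8+ T and NK cells, which express Eomes, summed to 160 to 245 CPM in Odc-/- Treg libraries and 17.3 to 43.3 CPM in their WT, but to 10.7 to 14.8 CPM in Odc-/- TH2 libraries and 13.6 to 23.1 CPM in theirs. In TH1 of the Odc set they summed to 23.8 to 52.0 CPM against 13.2 to 41.55 CPM in WT, and in TH17 to 47.8 to 82.0 against 32.4 to 49.7 CPM. In the Dohh set they summed to 197 to 359 CPM in deficient Treg libraries against 21.5 to 27.5 CPM, to 110 to 166 against 25.0 to 28.5 CPM in TH17, to 28.3 to 91.0 against 15.1 to 17.8 CPM in TH1 and to 17.1 to 35.4 against 19.5 to 24.6 CPM in TH2. Of these markers Cd8b1 fell in TH1 and TH2 of the Dohh set (log2 fold changes of -1.09 and -1.10, edgeR adjusted p = 0.00076 and 0.000529). It did not pass in TH17 or Treg there. The part of CD8+ T and NK cells in the rise of Eomes was not tested. Of 25 germline genes that DNA methylation keeps silent, 4 were tested in the Odc set and 5 in the Dohh set. Brdt, a testis bromodomain gene, fell in all 8 comparisons, such as from 6.11 to 1.70 CPM in TH1 of the Odc set and from 10.97 to 0.777 CPM in Treg of the Dohh set. Counts over the germline genes tested were 0, 0, 1 and 0 up and 3 down in each subset of the Odc set, and 2, 1, 2 and 2 up and 2, 1, 2 and 1 down in the Dohh set. One of the calls up in each Dohh subset was Tdrd9, a germline helicase gene at 0 to 0.184 CPM in WT, which passed the filter only through the deficient libraries, so the counts up do not describe the list. The counts down rest on the few genes with enough counts in WT and do not describe it either.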

How the data were processed

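Libraries were stranded mRNA libraries of cells polarized for 4 days. The authors deposited raw counts per gene in 2 tables, and their processing notes name STAR, featureCounts, deepTools and DESeq2 with the build mm10; tool versions, annotation release and strand setting are not given in the sources used here. Genes were matched to the annotation by identifier (47310 of 47937). Each table was fitted on its own with edgeR 4.0.16 in R 4.3.3: filterByExpr left 13839 genes (Odc set) and 13897 (Dohh set), scaling was by TMM, all 8 groups shared 1 quasi-likelihood fit, and p-values were adjusted by Benjamini and Hochberg over all genes tested, with 0.05 as the threshold. The differences between the tables came from 1 fit over both (14255 genes). WT subsets and the interaction of genotype and subset were F tests in the same fits. Ratios were compared by two-sided exact permutation tests over all divisions of the libraries (Python 3.11.15 with numpy 2.4.6). On simulated counts the Odc design recovered 82 of 100 genes changed 3-fold and 31 of 100 changed 1.5-fold among 13267 genes. The Dohh design recovered 64 and 5 of 100 among 13454. Only these genes were changed, and in TH1 alone, whereas 45.3% to 59.8% of all genes passed in the genotype comparisons above. The recovery therefore does not describe the power of those comparisons.

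The genes and lists were chosen with earlier results of these data known. From each list of partner genes the text names the 3 with the largest mean change among those tested in both tables and passing in at least 6 of 8 comparisons; for each of the 10 genes it names the 2 with the most similar profile. Alternatives were RLE scaling, other filters, DESeq2 1.42.0, the 2 groups alone, a replicate block, genotype and replicate number together as a random block (limma 3.58.1), a threshold of 0.01, a test against 1.2-fold, and each library left out. No pair of replicates was alike within sampling noise (lowest chi-square per degree of freedom 2.63).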

Additional observations from a re-analysis of the deposited data

Results flagged for a closer look

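In 7 of 70 groups of 4 libraries, 1 library stood apart by Dixon's test; chance gives about 1 in 20 groups. TH1 Odc-/- replicate 1, the library with the highest B cell marker sum, stood apart for several genes: Dnmt1 was lowest there at 319.9 CPM (others 434.8 to 452.6), Eed lowest at 112.7 CPM (152.7 to 158.1), Ezh1 highest at 54.3 CPM (33.6 to 34.3) and Tet2 highest at 112.8 CPM (57.5 to 65.4). Dnmt1 was highest in TH17 WT replicate 4 of the Odc set, at 414.5 CPM (291.0 to 300.1). Suz12 was highest in TH17 Odc-/- replicate 1, at 272.4 CPM (194.0 to 198.8), and in TH2 WT replicate 1, at 331.4 CPM (287.3 to 294.8).

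The genotype effect differed among subsets, by edgeR's interaction test, for Ezh2 (adjusted p = 0.000277), Dnmt1 (0.00228) and Dnmt3a (0.0472) in the Odc set and for Ezh2 (0.0104) and Dnmt3a (0.00302) in the Dohh set. The log2 effect in the Odc set differed from that in the Dohh set in 11 tests. In TH1 the Odc effect minus the Dohh effect was 1.175 for Dnmt3b and 0.9265 for Tet3, and in TH2 it was 0.889 for Ezh2 and 1.172 for Dnmt3a. In TH17 it was -0.9224 for Suz12 and -0.7431 for Dnmt3a. In Treg it was -1.146 for Ezh2, -0.4727 for Eed, -1.415 for Suz12, -1.23 for Dnmt1 and 0.9438 for Tet3.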

How the results depend on the processing

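Of the 40 tests in each table, 26 passed for Odc and 23 for Dohh, and no setting reversed the direction of a call. With 1 library left out the counts were 24 to 28 and 20 to 26, and those over 2-fold 5 to 8 and 8 to 12 (7 and 10 with all libraries). WT subset differences were 8 to 9 and 5 to 7, Odc minus Dohh differences 10 to 12, Ezh1 to Ezh2 ratios apart 7 to 8 and Dnmt3a to Dnmt1 ratios apart 2 to 3. Interactions were 2 to 5 in the Odc set (3 with all, 5 without TH1 Odc-/- replicate 1) and 2 to 4 in the Dohh set (2 with all, 4 without TH1 Dohh-/- replicate 3). A mean count of at least 50 left 6 Dohh calls over 2-fold. Tet1, with 3 of the 10 such calls, was not tested there and gives no value, which does not account for the whole drop.

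The values do not settle whether the replicate numbers pair WT with deficient libraries. Same-numbered deviations correlated by -0.112 to 0.254 in the Odc set (7 of 15 pairs over 0.1) and by -0.0411 to 0.183 in the Dohh set (1 of 12). Same-numbered libraries of 1 genotype deviated together across subsets (median r of 0.367 in WT of the Odc set, against -0.138 for differing numbers), which the fit without a block does not model. A replicate block gave 29 and 25 calls, losing none, and 6 interactions for Odc and 3 for Dohh. Over both sets, fitting only the 2 groups compared lost 6 calls and gained 4, and DESeq2 lost none and gained 1. A threshold of 0.01 lost 11 calls, a test against 1.2-fold lost 9 and the fit with no low-count filter lost 3. Settings chosen after seeing the data left out libraries of 1 number in every subset. Without deficient number 2, WT subset differences in the Dohh set were 8, and without numbers 2 and 3 they were 9. Interactions there were 6 without number 3 and 4 without both, the latter with 1 deficient library a group and so no test of its own. The cause was not tested. Low counts limit the precision of Tet1 in the Dohh set, where Dohh-/- libraries held 0 to 23.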
